A study of Mus musculus with 29 samples.

Results

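Human chromosome 7q carries several genes that have been linked to myeloid neoplasms and that lie outside the commonly deleted segment modelled by the 5A3 deletion. The 5 mouse orthologs Cux1, Ezh2, Samd9l, Luc7l2 and Dock4 were taken by their symbols from the deposited table of 30025 genes. Of these 5 genes, 4 passed the filter on low values (4 or more of the 29 libraries with a deposited FPKM of 1 or higher, FPKM being fragments scaled to exon length and sequencing depth), as did 15409 genes in all. Dock4 did not pass and is described by its deposited values. None of the 5 genes lies in the deleted mouse interval, so none of them is deleted in 5A3+/del mice.

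The 29 libraries came from 5 wild-type (WT) and 5 5A3+/del mice, littermates on a C57BL/6J background between 12.42 and 13.85 weeks old. In 5A3+/del mice the deletion is heterozygous and in the germ line, made by Cre in embryonic stem cells between loxP sites in Fbxl13 and Srpk2, and is therefore carried by every cell of the animal, the niche included. WT mice carry both copies of the interval. From each mouse, c-Kit+ lineage- Sca-1+ bone marrow cells without CD41 and CD48 were sorted into CD150hi hematopoietic stem cells (HSC), CD150lo HSC and CD150neg multipotent progenitors (MPP), which the sample labels also call HSC. Each of the 6 groups had 5 libraries but for 5A3+/del CD150neg MPP, which had 4. RNA was amplified before sequencing. In such bulk libraries, fewer cells that express a gene and less RNA of it per cell cannot be told apart.

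The 5 genes work in different pathways. Cux1 is a homeodomain transcription factor, Ezh2 is the catalytic subunit of Polycomb repressive complex 2 (PRC2), which methylates histone H3 at lysine 27 and keeps target genes silent, and Luc7l2 is a splicing factor that associates with the U1 small nuclear ribonucleoprotein (snRNP) at 5' splice sites. Samd9l is an interferon-induced cytoplasmic protein that restrains growth, and Dock4 is an exchange factor that activates small GTPases and acts in adhesion and migration. In monosomy 7 and del(7q) one copy of each can be lost together with the commonly deleted segment, and in myeloid neoplasms mutations of several of them are known.

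In the mouse (mm9), Cux1 lies on chr5:136724005-137043301 (minus strand), the chromosome that carries the deletion, 113541739 bp beyond the end of Srpk2. Samd9l (chr6:3322257-3349571, minus strand), Luc7l2 (chr6:38501334-38559470, plus strand) and Ezh2 (chr6:47480273-47545340, minus strand) lie on a single other chromosome. Dock4 lies on chr12:41172640-41573073 (plus strand). All are protein coding genes. The table gives 1 value per gene over its exons, and no window of 100 bases of their coding transcripts occurs in another gene's coding transcripts. Exons of Cux1, Ezh2 and Luc7l2 overlap the antisense RNAs Gm16599 by 394 bases, Gm17629 by 174 and Gm17451 by 2284, and reads from both strands cannot be told apart where counting ignores strand, which is not stated.

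The promoters of the 5 genes, windows of 300 bases that end shortly after the start of transcription in RefSeq (GRCm38.p6, a later build than that of the expression table), were searched on both strands for 3 short motifs. The 3 promoters that hold a motif are shown, with the match in capitals. GAAANNGAA, a repeat found in interferon response elements, occurred in Samd9l and in 8.56% of 32851 mouse promoters of the same length. TTTGGCGC, a site bound by E2F factors of the cell cycle, occurred in Ezh2 and in 0.514% of promoters. ATCGAT, the core recognized by Cux1, occurred in Dock4 and in 0.925% of promoters. None of the 3 motifs was found in the windows of Cux1 and Luc7l2, and a match describes the letters only. Only 1 window per gene was searched. Luc7l2 has 15 annotated transcripts, and starts of transcription outside its window were not covered. In 5' to 3' direction the windows are as follows.
Samd9l, chr6:3399522-3399821, minus strand: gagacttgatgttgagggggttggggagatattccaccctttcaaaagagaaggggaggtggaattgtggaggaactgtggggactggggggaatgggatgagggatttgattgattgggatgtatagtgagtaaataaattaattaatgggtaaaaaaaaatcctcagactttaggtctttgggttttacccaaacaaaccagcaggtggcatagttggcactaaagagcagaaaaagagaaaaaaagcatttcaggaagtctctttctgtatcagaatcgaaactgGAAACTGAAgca
Ezh2, chr6:47594981-47595280, minus strand: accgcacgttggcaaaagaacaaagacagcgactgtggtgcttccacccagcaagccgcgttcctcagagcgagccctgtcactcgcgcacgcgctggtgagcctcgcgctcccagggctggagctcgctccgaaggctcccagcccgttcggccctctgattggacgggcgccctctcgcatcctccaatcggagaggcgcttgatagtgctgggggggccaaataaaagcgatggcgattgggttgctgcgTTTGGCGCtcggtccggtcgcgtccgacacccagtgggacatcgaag
Dock4, chr12:40445803-40446102, plus strand: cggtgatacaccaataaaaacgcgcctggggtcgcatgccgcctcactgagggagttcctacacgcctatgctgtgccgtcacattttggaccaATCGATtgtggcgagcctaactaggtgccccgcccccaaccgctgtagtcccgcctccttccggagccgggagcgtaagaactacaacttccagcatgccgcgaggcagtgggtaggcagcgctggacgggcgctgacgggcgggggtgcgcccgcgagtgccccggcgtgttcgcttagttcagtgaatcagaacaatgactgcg

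Depth was between 21229623 and 38797889 fragments per library, computed from the steps of the low values, and between 17346 and 23588 genes were above 0. Of these, 2 CD150hi libraries (WT mouse 2 and 5A3+/del mouse 1) had the fewest genes among CD150hi libraries, 17504 and 17346, and results are also given without them where they matter. The 7 expressed interval genes checked were at 52.6% of the WT mean in the median in CD150hi HSC, 52.2% for CD150lo and 46.4% for CD150neg cells. Slamf1, which encodes CD150, followed the sort, and 10 or 11 of 11 stem and progenitor markers had a group mean of at least 1 FPKM in every group. Markers of granulocytes and monocytes (S100a8, S100a9, Ngp, Elane, Mpo and Ltf) were also detected. Their summed FPKM ranged from 57.7 to 878 in WT CD150hi HSC and from 14.0 to 119 in 5A3+/del CD150hi HSC. Xist was between 234 and 319 FPKM in the 3 libraries of WT mouse 3 and at most 0.470 in the other 26, and the labels do not give the sex. Summed markers of stroma did not exceed 1.29 FPKM in any library.

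FPKM are scaled to exon length, so levels of different genes are set side by side here as a description. Effects of amplification, of the overlapping antisense RNAs and of the exon lengths used, which are not given, were not tested. Luc7l2 was the highest of the 5 genes, with a median deposited FPKM of 41.0 (range 21.9 to 70.3 over 29 libraries), and exceeded Cux1 in 29 and Samd9l in 27 of the 29 libraries. Samd9l had a median of 25.25 (19.1 to 37.1) and Cux1 of 22.7 (12.6 to 33.8). These neighbours in the order were not separated, since Samd9l was higher in 18 of 29 libraries. Ezh2 had a median of 10.8 (4.32 to 14.4) and was below Cux1 and Samd9l in 29 of 29 libraries. Dock4 had a median of 0.131 (0 to 0.965) and was lowest. Among the 15409 genes tested, 94.3% had a lower median than Luc7l2, 88.4% than Samd9l, 87.1% than Cux1 and 70.7% than Ezh2.

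The relatives of these genes ranged from under 1 FPKM to the level of the genes themselves. Ezh1, the other catalytic subunit of PRC2, had a median of 11.3 FPKM (8.11 to 17.9), and Ezh2 was the higher of the pair in 13 of 29 libraries. Luc7l (median 14.7, from 11.9 to 19.7) and Luc7l3 (27.2, from 17.3 to 36.2) were lower than Luc7l2 in 29 of 29 libraries. Cux2 was low, with a median of 0.175 FPKM (0.00416 to 0.569), and was below Cux1 in every library. Dock2, the exchange factor typical of blood cells, had a median of 29.8 FPKM (21.2 to 38.5) and was above Dock1 (7.09) and Dock5 (6.98) in every library. Dock3 had a median of 0.638 FPKM and was above Dock4 in 25 of 29 libraries.

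**Figure D1:**
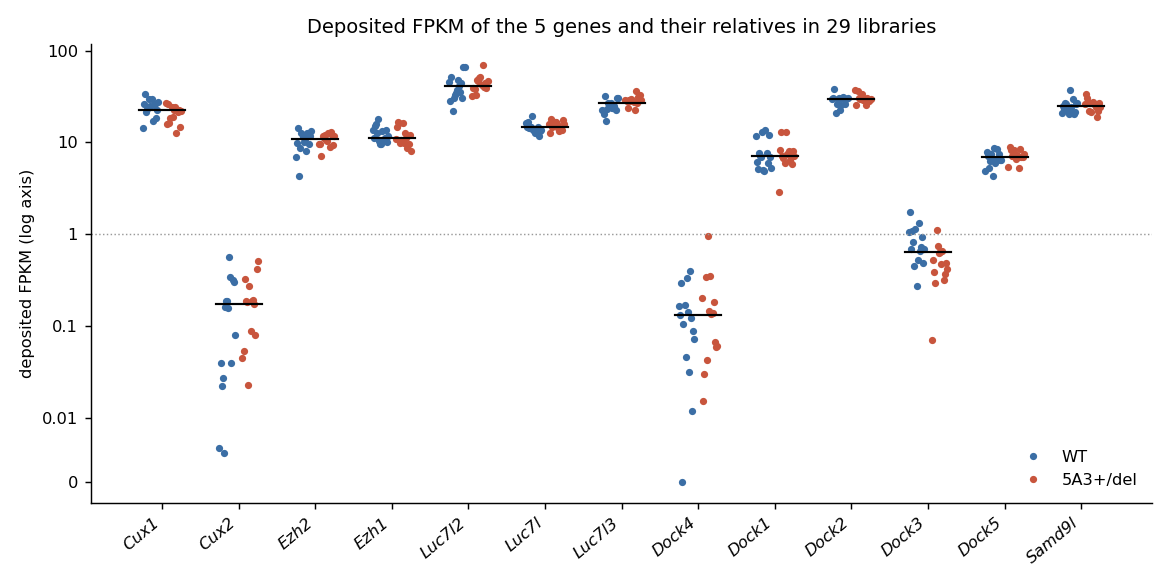
Deposited FPKM on a log axis for the 5 genes and their relatives, with 1 point per library (29 per gene, WT and 5A3+/del in different colours), a bar at the median and a dotted line at 1 FPKM, and with a value of 0 drawn at the position marked 0. Dock4 and Cux2 sit below 1 FPKM in every library, whereas Cux1, Ezh2, Luc7l2 and Samd9l sit above it in every library.

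The first comparison asked whether loss of the 5A3 interval was accompanied by a change in the other 7q genes. It was made on normalized FPKM (log2 of FPKM + 1, quantile normalized over the libraries and transformed back) with limma, and adjusted p-values cover all 15409 genes. None of the 4 genes that could be tested passed the threshold of 0.05 in CD150hi HSC, where 0.156% of all genes did, in CD150lo HSC (0.0324% of all genes) or in CD150neg MPP (0.0454% of all genes). Their 5A3+/del means were between 88.4% and 128.5% of WT in CD150hi HSC, between 81.2% and 113.6% in CD150lo HSC and between 86.0% and 108.2% in CD150neg MPP. None had an unadjusted p under 0.05 either, the lowest being 0.0545 for Ezh2 in CD150hi HSC. Intervals of these differences are given for each gene, since a p-value over the threshold does not show that genotypes were alike.

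**Figure D2:**
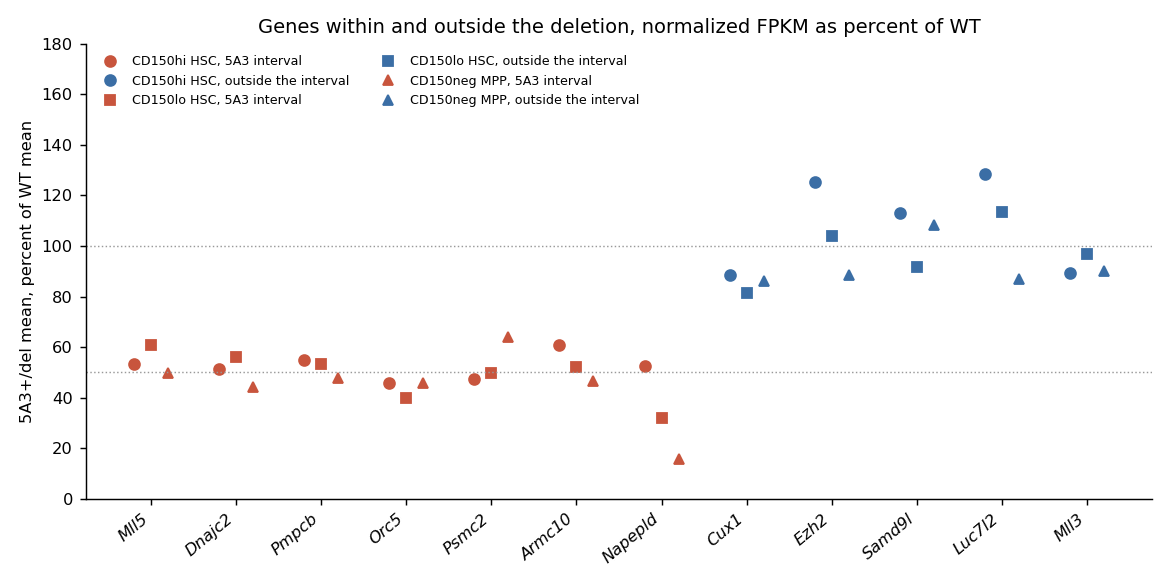
The 5A3+/del mean of normalized FPKM as a percentage of the WT mean for the 7 interval genes, for Cux1, Ezh2, Samd9l and Luc7l2, and for Mll3, with a symbol per population (5 libraries per genotype, 4 for 5A3+/del CD150neg MPP) and dotted lines at 50 and 100 percent. Interval genes lie between 15.5% and 64.0%, and the 4 genes outside it between 81.2% and 128.5%.

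Cux1, the homeodomain factor, was somewhat lower in 5A3+/del mice than in WT in each population, without passing the test. In WT CD150hi HSC its normalized FPKM was 15.0, 21.2, 29.35, 17.8 and 18.8 in mice 1 to 5, and in 5A3+/del CD150hi HSC it was 26.3, 16.6, 18.6, 13.6 and 15.2. The ranges overlapped almost fully, the mean being 20.4 ± 5.46 (SD, n = 5) for WT and 18.05 ± 4.945 (n = 5) for 5A3+/del. The log2 difference was -0.17 (95% confidence interval -0.48 to 0.14, adjusted p = 0.679).

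In CD150lo HSC, Cux1 was 25.9, 23.5, 27.0, 25.7 and 23.2 in WT mice and 16.7, 19.1, 23.1, 20.9 and 21.9 in 5A3+/del mice. Every WT library was above every 5A3+/del library, although the closest libraries, at 23.2 and 23.1, nearly touched. Cux1 was the only 1 of the 4 genes whose genotypes did not overlap in CD150lo HSC, and 1.63% of all genes did not overlap there. There was 0 of 4 in CD150hi HSC (2.58% of all genes) and 0 of 4 in CD150neg MPP (1.51% of all genes). The means were 25.04 ± 1.63 (n = 5) and 20.3 ± 2.50 (n = 5), with a log2 difference of -0.29 (-0.60 to 0.02, adjusted p = 0.780 by limma), so that the difference was not significant over all genes.

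In CD150neg MPP, Cux1 was 31.3, 22.95, 30.2, 26.0 and 27.6 in WT and 23.8, 23.7, 24.4 and 23.05 in 5A3+/del mice. All but 1 of the WT libraries were above all 4 of the 5A3+/del libraries. The log2 difference was -0.20 (-0.53 to 0.13, adjusted p = 1.00 by limma). Mll3, a histone methyltransferase gene of human 7q that lies 1595346 bp from the end of Srpk2 on the same chromosome, had log2 differences of -0.19, -0.06 and -0.13 in the 3 populations and did not pass the test either.

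Ezh2, the PRC2 enzyme, was 7.32, 4.62, 10.9, 7.975 and 9.62 in WT CD150hi HSC and 9.41, 11.9, 10.3, 9.63 and 9.43 in 5A3+/del CD150hi HSC. The WT libraries were more spread, with 3 of 5 below all 5A3+/del libraries. The means were 8.09 ± 2.40 (n = 5) and 10.1 ± 1.05 (n = 5), and the log2 difference of 0.33 (-0.01 to 0.67) had an adjusted p of 0.395 by limma. Without the 2 CD150hi libraries with the fewest genes, of which WT mouse 2 was the lowest for Ezh2, the difference was 0.19 (adjusted p = 0.720).

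In CD150lo HSC, Ezh2 was 9.73, 8.72, 11.5, 12.6 and 12.0 in WT and 10.2, 11.5, 10.7, 12.7 and 11.55 in 5A3+/del mice. The log2 difference was 0.06 (-0.28 to 0.40). In CD150neg MPP it was 13.1, 11.8, 11.3, 11.7 and 13.4 in WT and 6.58, 11.8, 12.8 and 12.3 in 5A3+/del mice. A single 5A3+/del library stood below the rest, and the log2 difference was -0.20 (-0.56 to 0.16). Without that mouse it was 0.0028, so the direction rested on 1 library. The adjusted p-values were 0.989 and 1.00 by limma.

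Samd9l, the interferon-induced gene, did not pass the test between genotypes. In CD150hi HSC it was 22.1, 26.3, 20.2, 21.65 and 21.75 in WT and 25.04, 22.4, 26.4, 26.0 and 27.1 in 5A3+/del mice, and 4 of 5 WT libraries were below all 5A3+/del libraries. The means of 22.4 ± 2.29 (n = 5) and 25.4 ± 1.82 (n = 5) gave a log2 difference of 0.17 (-0.11 to 0.46, adjusted p = 0.637 by limma). In CD150lo HSC it was 24.6, 26.5, 38.7, 30.1 and 26.5 in WT and 35.1, 27.6, 28.3, 18.7 and 24.1 in 5A3+/del mice, with the widest spread of the 3 populations and a log2 difference of -0.13 (-0.42 to 0.15). In CD150neg MPP it was 21.1, 20.6, 24.7, 19.97 and 26.7 in WT and 28.0, 20.9, 26.4 and 22.6 in 5A3+/del mice. The ranges overlapped and the log2 difference was 0.11 (-0.20 to 0.41).

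Luc7l2, the splicing factor, varied most between mice, and its intervals are therefore the widest. In CD150hi HSC it was 47.5, 21.4, 34.1, 43.1 and 31.1 in WT and 31.0, 33.4, 48.95, 73.8 and 40.6 in 5A3+/del mice. The means were 35.4 ± 10.3 (n = 5) and 45.55 ± 17.3 (n = 5), with a log2 difference of 0.33 (-0.16 to 0.83, adjusted p = 0.591 by limma). In CD150lo HSC it was 27.8, 30.8, 38.5, 35.6 and 69.5 in WT and 42.2, 48.4, 53.0, 39.7 and 46.4 in 5A3+/del mice. The 5 5A3+/del libraries were above 4 of the WT libraries and below the highest one, and the log2 difference was 0.25 (-0.24 to 0.74). In CD150neg MPP it was 48.4, 31.35, 48.5, 44.3 and 66.2 in WT and 34.97, 45.2, 41.0 and 44.5 in 5A3+/del mice, and the log2 difference was -0.17 (-0.69 to 0.35). The 3 log2 differences did not have 1 sign.

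Dock4 was too low for a comparison of levels in any population. In WT CD150hi HSC it had 34, 0, 10, 7 and 3 fragments, and in 5A3+/del CD150hi HSC it had 43, 71, 31, 35 and 16. In CD150lo HSC it had 41, 24, 68, 85 and 19 fragments in WT and 3, 9, 66, 37 and 14 in 5A3+/del mice. In CD150neg MPP it had 51, 42, 38, 29 and 18 fragments in WT and 6, 202, 29 and 17 in 5A3+/del mice. The median was 29 fragments per library, and 3 libraries were at or below 3 fragments, the floor that counting allows. In FPKM, the group means ran from 0.0510 ± 0.0668 (n = 5) in WT CD150hi HSC to 0.299 ± 0.446 (n = 4) in 5A3+/del CD150neg MPP, where 1 library at 0.965 set the mean. The counting floor does not cover the spread from amplification.

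**Figure D3:**
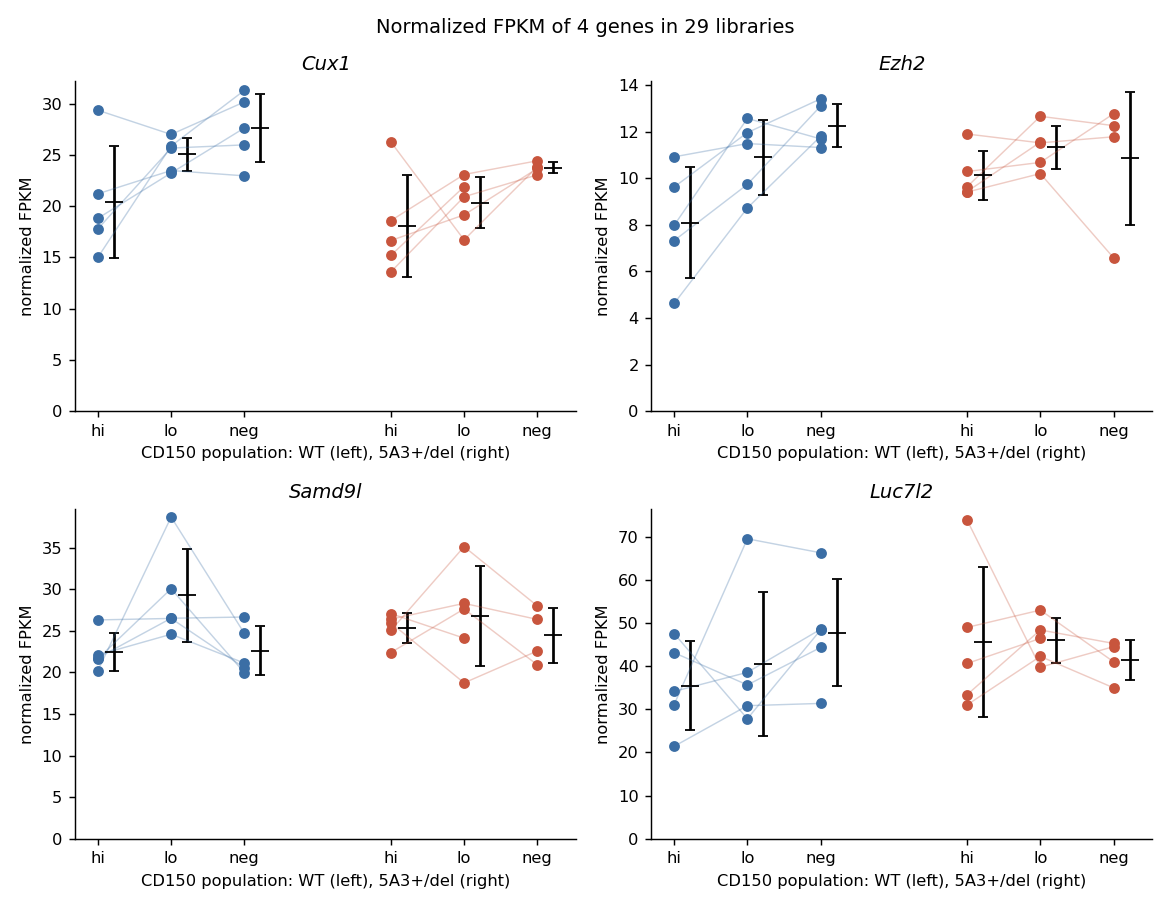
Normalized FPKM of Cux1, Ezh2, Samd9l and Luc7l2 (y axis from 0), with a point per library, pale lines that join the libraries of 1 mouse, and the mean with its SD beside each group (n = 5, or 4 for 5A3+/del CD150neg MPP). For Ezh2 the WT CD150neg MPP libraries, at 11.3 and above, all lie above the WT CD150hi HSC libraries, at 10.9 and below.

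The second comparison followed the 4 genes from CD150hi HSC, the population richest in long-term stem cells, through CD150lo HSC to CD150neg MPP within each genotype. Between CD150neg MPP and CD150hi HSC, Ezh2 was the only 1 of the 4 genes that passed the test, and only in WT, where 10.0% of all genes passed. Its mean rose from 8.09 to 12.3, a fold of 1.502 on the log2 scale used (95% confidence interval 1.19 to 1.90, log2 difference 0.59, SE 0.17, adjusted p = 0.0208 by limma). Ezh2 was higher in CD150neg MPP in 5 of 5 WT mice, and the groups did not overlap, as was the case for 8.63% of all genes.

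The Ezh2 difference depended on which libraries were used. Leaving out the 2 CD150hi libraries with the fewest genes gave 0.42 (adjusted p = 0.0763), and a fit of the groups compared alone gave an adjusted p of 0.0991. Leaving out WT mouse 1, 2 or 4 gave adjusted p-values of 0.0974, 0.102 and 0.0560, whereas without WT mouse 3, the mouse with high Xist, it was 0.72 on the log2 scale (adjusted p = 0.0123). Summed markers of granulocytes and monocytes were between 57.7 and 878 FPKM in WT CD150hi HSC and between 16.0 and 118.4 in WT CD150neg MPP, and their part in the result was not tested.

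In 5A3+/del mice, Ezh2 was 10.1 ± 1.05 (n = 5) in CD150hi HSC and 10.85 ± 2.87 (n = 4) in CD150neg MPP, with a log2 difference of 0.06 (-0.30 to 0.42, adjusted p = 0.924 by limma). None of the 4 genes passed the test there, where 6.16% of all genes did, and none of them had groups without overlap (7.61% of all genes). Whether the step differed between genotypes was tested as an interaction, and for Ezh2 this difference of differences was -0.53 (-1.03 to -0.04, unadjusted p = 0.0362, adjusted p = 0.593 by limma). No gene passed this test (0% of all genes; 1227 genes, 7.96%, had an unadjusted p under 0.05). A difference between genotypes in the Ezh2 step was therefore not shown.

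Cux1 was higher in CD150neg MPP than in CD150hi HSC in both genotypes without passing the test. The log2 difference was 0.44 (0.13 to 0.75, adjusted p = 0.0637 by limma) in WT, where the gene was higher in 5 of 5 mice, and 0.41 (0.08 to 0.74, adjusted p = 0.155) in 5A3+/del, where it was higher in 3 of 4. In 5A3+/del mouse 1 the order was inverted, with 26.3 in CD150hi HSC against 16.7 in CD150lo HSC and 23.8 in CD150neg MPP. Without the 2 CD150hi libraries with the fewest genes, of which 5A3+/del mouse 1 is 1, both differences passed, with 0.47 (adjusted p = 0.0360) in WT and 0.55 (adjusted p = 0.0245) in 5A3+/del. In WT the difference also passed without 5A3+/del mouse 1 (adjusted p = 0.0282), without WT mouse 3 (0.0288) and with a trend in the variance (0.0489), and in 5A3+/del without 5A3+/del mouse 1 (0.0482). The interaction was -0.03 (-0.49 to 0.42) for Cux1 and -0.07 (-0.48 to 0.35) for Samd9l.

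**Figure D4:**
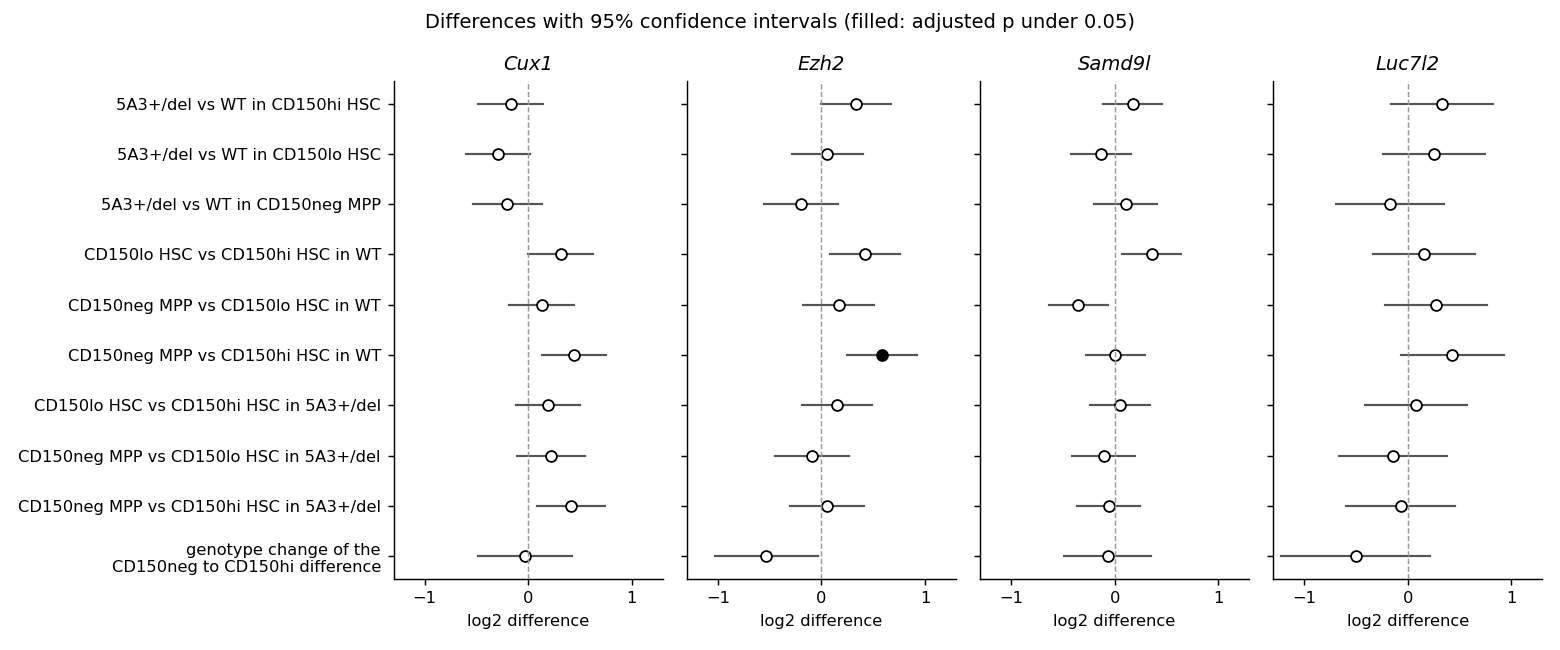
Log2 differences of Cux1, Ezh2, Samd9l and Luc7l2 for the 10 comparisons, with bars for the 95% confidence interval of limma and filled points for an adjusted p under 0.05. The 1 filled point is Ezh2 between CD150neg MPP and CD150hi HSC in WT, at 0.59.

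Samd9l did not follow this order. In the CD150hi, CD150lo and CD150neg cells of WT mice it was 22.4 ± 2.29, 29.3 ± 5.62 and 22.6 ± 2.92 (n = 5 each), so that the middle population was highest. The log2 differences were 0.36 (0.07 to 0.65, adjusted p = 0.207 by limma) from CD150hi to CD150lo HSC, in 5 of 5 mice, and -0.35 (-0.64 to -0.06, adjusted p = 0.440) from CD150lo HSC to CD150neg MPP, lower in 4 of 5 mice. In 5A3+/del mice the same steps were 0.05 (-0.24 to 0.34) and -0.11 (-0.41 to 0.20). Neither step passed the test.

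Luc7l2 was 35.4 ± 10.3, 40.45 ± 16.75 and 47.75 ± 12.5 in the 3 WT populations (n = 5 each) and 45.55 ± 17.3, 45.9 ± 5.19 and 41.4 ± 4.68 in those of 5A3+/del mice (n = 5, 5 and 4). In WT, CD150neg MPP were higher than CD150hi HSC in 5 of 5 mice, with a log2 difference of 0.43 (-0.06 to 0.92, adjusted p = 0.306 by limma). In 5A3+/del mice the difference was -0.07 (-0.59 to 0.45), and the interaction was -0.50 (-1.22 to 0.22, adjusted p = 0.756). The spread between mice, up to 41.4% of the mean, was as large as these differences.

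The adjacent populations gave no calls among the 4 genes. Between CD150lo and CD150hi HSC, 3.53% of all genes passed in WT and 3.18% in 5A3+/del mice. Ezh2 had the largest log2 difference of the 4 in WT at this step, 0.42 (0.08 to 0.76, adjusted p = 0.207 by limma), and was higher in CD150lo HSC in 5 of 5 mice. Cux1 had 0.31 in WT (0.00 to 0.63) and 0.19 in 5A3+/del mice (-0.12 to 0.50). Ezh2 had 0.15 in 5A3+/del mice, and Luc7l2 had 0.16 in WT and 0.08 in 5A3+/del mice. Between CD150neg MPP and CD150lo HSC, 0.188% of all genes passed in WT (29 genes, and 1 with the mouse as a block) and 0.0389% in 5A3+/del mice (6 genes, and 2 with the block). At this step Cux1 had 0.13 in WT and 0.22 in 5A3+/del mice, Ezh2 had 0.17 and -0.09, and Luc7l2 had 0.27 and -0.15. Dock4 was not tested between populations, for which its fragments are given above.

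Across the 29 libraries, the 4 genes were weakly related to each other. As a description over libraries that share mice and amplification, Pearson's r of the normalized log2 values was 0.46 for Ezh2 and Luc7l2, 0.34 for Ezh2 and Cux1, and between -0.14 and 0.08 for the other pairs. Ezh2 and Luc7l2 also had r values of 0.45 and 0.47 with the number of genes above 0 in a library, whereas Cux1 had 0.11 and Samd9l -0.09. The genes most like Cux1 were Msrb3 (r = 0.77), Arhgef11 (0.69) and Dntt (0.68). Those most like Ezh2 were Hnrnpab (0.83), Clip1 (0.82) and Osbp (0.81), and those most like Luc7l2 were Mtpn (0.90), snoZ40 (0.85) and Taok1 (0.83). For Samd9l they were Ube2d2 (0.79), the interferon-induced gene Ifit1 (0.71) and 8430410K20Rik (0.69). Within groups, after removing the 6 group means, Samd9l and Ifit1 had an r of 0.67 and Cux1 and Dntt 0.42.

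The SD of the log2 values over the 29 libraries was 0.30 for Cux1, 0.30 for Ezh2, 0.23 for Samd9l and 0.39 for Luc7l2, against a median of 0.35 over all genes tested. Samd9l thus varied least and Luc7l2 most. From the lowest to the highest library, normalized FPKM spanned 2.30-fold for Cux1, 2.90-fold for Ezh2, 2.07-fold for Samd9l and 3.45-fold for Luc7l2.

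Partners of Ezh2 in PRC2 gave no calls. Of 10 genes (among them Eed, Suz12, Jarid2 and Ezh1), 10 were tested and 0 passed in any of the 10 comparisons (smallest adjusted p = 0.190 by limma). Between CD150neg MPP and CD150hi HSC in WT, where Ezh2 rose, their log2 differences had a median of 0.0022 and ran from -0.56 to 0.27, against a median of 0.0070 over all genes. Ezh1 itself was 13.4 ± 2.19 in WT CD150hi HSC and 12.7 ± 2.69 in WT CD150neg MPP (n = 5 each).

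Of the 10 genes of the U1 snRNP and LUC7 family around Luc7l2, 2 passed in 1 comparison, CD150neg MPP against CD150hi HSC in WT, where 10.0% of all genes passed. Tia1, an RNA-binding protein that helps recruit U1, rose (log2 difference 0.36, adjusted p = 0.0486 by limma), and its relative Tial1 fell (-0.41, adjusted p = 0.0144). In the same comparison, with its 10.0% of all genes, 2 of 8 spliceosome genes mutated in myelodysplastic syndrome rose, Sf3b1 of the U2 snRNP (0.36, adjusted p = 0.0323) and the branch point binding protein Sf1 (0.32, adjusted p = 0.0322). The medians of these lists were 0.12 and 0.04. In 5A3+/del mice, none of the 10 and none of the 8 genes passed in any population comparison, where at most 6.16% of all genes did, and no gene of either list passed the interaction.

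Interferon-induced genes, the class to which Samd9l belongs, did not pass in the genotype comparisons (0 of 21 in each population). In CD150hi HSC 18 of 21 had a positive log2 difference, with a median of 0.22 and a range from -0.20 to 0.67, against a median of 0.0044 over all genes, and the smallest adjusted p was 0.305. The medians in CD150lo HSC and CD150neg MPP were 0.04 and 0.08. The 21 genes were measured in the same mice and are not separate observations, and the list was not tested as a set. Between CD150neg MPP and CD150hi HSC, 2 of 21 passed in WT (10.0% of all genes) and 1 of 21 in 5A3+/del mice (6.16% of all genes). Rtp4 rose in WT (0.78, adjusted p = 0.0144 by limma) and in 5A3+/del mice (0.73, adjusted p = 0.0450), and the antiviral synthetase gene Oas2 rose in WT (1.26, adjusted p = 0.00842). Samd9l at this step was at 0.01 and -0.06.

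Among the 9 partners of Dock4 (Elmo adaptors, Rac and Rap GTPases and Crk adaptors), all were tested and 0 passed in any comparison (smallest adjusted p = 0.198 by limma). Of the 7 relatives tested, Dock1 was the only gene called, in a comparison where 10.0% of all genes passed. It fell from 11.8 ± 2.33 in WT CD150hi HSC to 5.52 ± 0.700 in WT CD150neg MPP (n = 5 each, log2 difference -0.96, adjusted p = 0.00291 by limma). In 5A3+/del mice Dock1 was 7.95 ± 3.32 (n = 5) in CD150hi HSC and 7.77 ± 2.71 (n = 4) in CD150neg MPP. It was higher in CD150neg MPP in only 1 of 4 mice, mouse 1, with 3.26 in CD150hi HSC and 11.7 in CD150neg MPP. That CD150hi library is 1 of the 2 with the fewest genes, and it also enters the Dock1 difference between genotypes. Values of Dock1 without it are not given. The interaction did not pass for any relative (smallest adjusted p = 0.386). Between genotypes 0 of the 7 relatives passed the test in any population. In CD150hi HSC, where their differences were widest, the log2 difference was -0.59 for Dock1 (adjusted p = 0.216 by limma), -0.53 for Dock3 (adjusted p = 0.162), 0.46 for Luc7l3 (adjusted p = 0.116), 0.16 for Dock2, 0.07 for Dock5, 0.07 for Luc7l and -0.0007 for Ezh1. The genotypes did not overlap for Dock3, which was at 1.13 ± 0.274 in WT and 0.467 ± 0.0869 in 5A3+/del mice, or for Luc7l3, at 22.8 ± 3.43 and 31.7 ± 4.59 (n = 5 each), as for 2.58% of all genes. Dock3 reached a deposited FPKM of 1 in only 6 of 29 libraries. It passed the filter only through WT CD150hi HSC, where it was highest, so its lack of overlap there is no support for a difference. Before normalization its FPKM in CD150hi HSC was 1.11 ± 0.138 in WT and 0.427 ± 0.244 in 5A3+/del mice. Pik3ip1, an inhibitor of phosphoinositide 3-kinase signalling reported as a target of Cux1, had log2 differences between genotypes of 0.29, 0.40 and -0.05 in the 3 populations and did not pass in any comparison.

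Of 14 other genes of human 7q or its neighbourhood in myeloid disease, 12 were found by symbol and tested. Of the other symbols, Kmt2c is the newer name of Mll3, which was tested, and no gene was found under the symbol Samd9. None passed between genotypes. The smallest adjusted p by limma was 0.0520, in CD150hi HSC, where the log2 differences ran from -0.62 to 0.30. Between CD150neg MPP and CD150hi HSC 4 of 12 passed in WT (10.0% of all genes) and 2 of 12 in 5A3+/del mice (6.16% of all genes), and between CD150lo and CD150hi HSC 2 of 12 in 5A3+/del mice (3.18% of all genes). Rasa4, which encodes a GTPase activating protein of Ras, was higher in CD150neg MPP than in CD150hi HSC in WT (0.79, adjusted p = 0.000352 by limma) and in 5A3+/del mice (1.34, adjusted p = 5.99e-07). It was also higher in CD150lo than in CD150hi HSC in 5A3+/del mice (0.95, adjusted p = 9.3e-05). Rasa4 was low in CD150hi HSC, at 2.22 ± 0.711 in WT and 1.06 ± 0.256 in 5A3+/del mice (n = 5 each). The latter is near the filter value of 1 FPKM. In CD150neg MPP it was 4.49 ± 0.466 in WT (n = 5) and 4.26 ± 0.916 in 5A3+/del mice (n = 4). Prkar2b, a regulatory subunit of protein kinase A, fell in the 3 comparisons in which Rasa4 passed, by 0.38, 0.74 and 0.41 on the log2 scale. Cdk6, a cell cycle kinase, rose in WT from 30.6 ± 5.04 to 55.5 ± 14.3 (n = 5 each, log2 difference 0.82, adjusted p = 0.00642), and Casp2 rose by 0.45 (adjusted p = 0.0194).

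**Figure D5:**
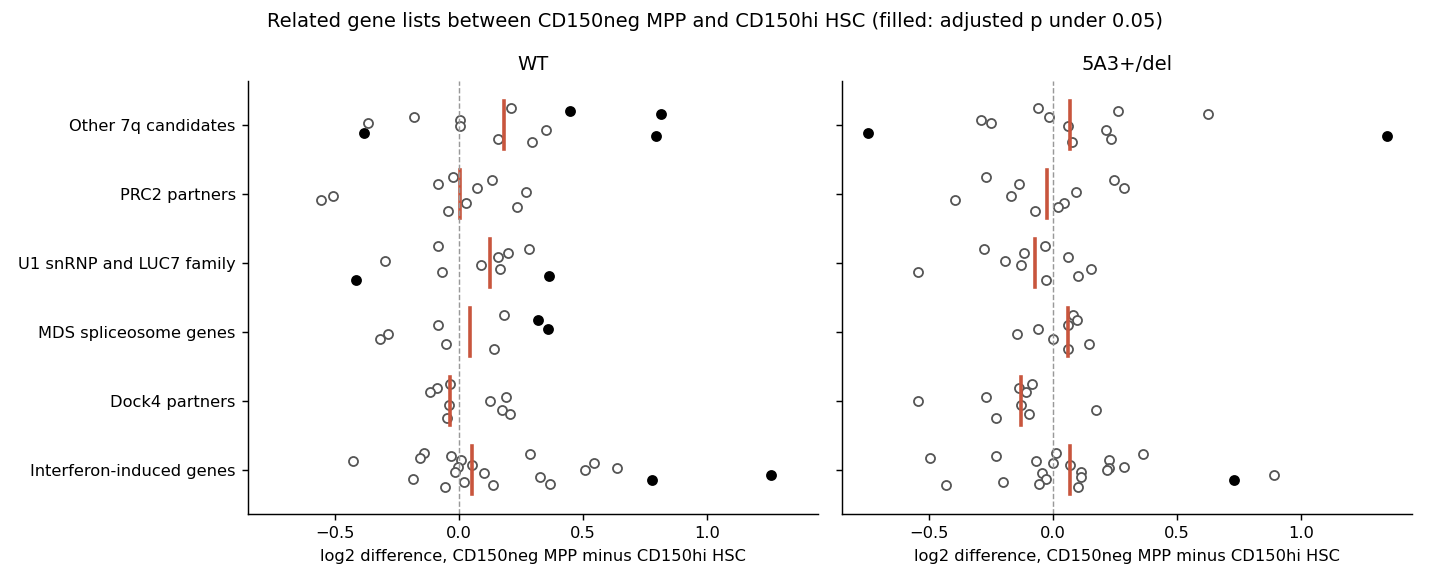
Log2 differences between CD150neg MPP and CD150hi HSC for the genes of 6 related lists in WT and in 5A3+/del mice, with a point per gene, filled where the adjusted p was under 0.05, and a bar at the median of each list. In WT 10 points are filled (10.0% of all genes passed there) and in 5A3+/del mice 3 (Rasa4, Prkar2b and Rtp4, with 6.16% of all genes), and no gene passed the interaction.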

How the data were processed

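The libraries were RNA-Seq of 3 sorted populations of 5 WT and 5 5A3+/del mice. RNA was amplified (Ovation V2), sequenced with paired ends and mapped by the authors to mm9. Their processing notes name Bowtie 0.12.2 and HTSeq. FPKM, the fragments of a gene scaled to its exons and to depth, were deposited for 30025 genes in 29 libraries, and the values are not quantile normalized. The annotation and the strand of counting are not given in the sources used here. The mean exon coverage used in the paper's methods is another quantity and was not used here.

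Groups came from the labels for genotype and cell type, and a mouse code there links the populations of a mouse. GENCODE for mm9 held 29279 of the 30025 identifiers (97.5%). FPKM times exon length gave steps from which fragments per library were computed (21229623 to 38797889). Between 98.4% and 98.9% of low values were whole within 0.05 fragments, but those of Cux1 and Cux2 were not whole (0.22 fragments off in the median for both) and are not printed. The floor was taken as 3 fragments, which covers counting error only.

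Genes that reached an FPKM of 1 in 4 or more libraries were transformed as log2(FPKM + 1), quantile normalized, and fitted with limma 3.58.1 in R 4.3.3 as 6 group means over all 29 libraries. Quantile normalization and limma are named in the study's methods. Its filter was set on exon coverage, so both the filter and the values here differ from the study's. Tests were two-sided with Benjamini-Hochberg adjustment over 15409 genes at 0.05. On this scale the change of low genes is understated. Python 3.11.15 with pandas 2.3.3 was used for tables. The steps were tested on simulated data.

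The 5 genes and all lists (other 7q candidates, PRC2 partners, U1 snRNP and LUC7 family, spliceosome genes mutated in myelodysplastic syndrome, Dock4 partners, interferon-induced genes, the Cux1 target and paralog, and relatives) were chosen with earlier results of these data known. The 5 genes are named whatever their values, Dock4 without a test, and their relatives are named with their levels. From each list up to 4 genes per comparison with the smallest adjusted p-values under 0.05 are named, and for each gene tested the 3 genes with the highest correlation over the libraries. Differences of single relatives between genotypes, Mll3 and the genes listed by name as members of a list were added after their values were seen. So were the levels of Rasa4 and the Dock1 values of 5A3+/del mouse 1.

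Libraries of different populations with the same mouse code come from the same animal, and the correlation of their deviations from the group means was between -0.04 and 0.24 (28 pairs, median 0.08). The mouse as a block was an alternative for these comparisons. Other alternatives covered the pseudocount, the filter, the scaling, the variance prior, the libraries in the fit, age as a covariate, leaving out each mouse in turn and, chosen after seeing the data, leaving out the 2 CD150hi libraries with the fewest genes above 0.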

Additional observations from a re-analysis of the deposited data

Results flagged for a closer look

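Of 30 groups of 4 or 5 libraries (5 genes in 6 groups), 4 held a library far from the others by Dixon's criterion, where chance gives about 1.5. Ezh2 was at 6.58 normalized FPKM in the CD150neg MPP of 5A3+/del mouse 1, the lowest of its group, with the others between 11.8 and 12.8. Luc7l2 was at 69.5 normalized FPKM in the CD150lo HSC of WT mouse 5, the highest of its group, with the others between 27.8 and 38.5. Dock4 was at 0.166 deposited FPKM in the CD150hi HSC of WT mouse 1, with the others between 0 and 0.0453. Dock4 was also at 0.965 deposited FPKM in the CD150neg MPP of 5A3+/del mouse 2, with the others between 0.0301 and 0.135. The causes were not tested.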

How the results depend on the processing

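For the 4 genes tested, 40 differences were recomputed under the alternatives, 692 values in all, of which 661 kept their direction and their side of the threshold, 5 lost the call, 6 gained one and 20 changed sign. None of the 216 values between genotypes was called (lowest adjusted p = 0.26 by limma). The lost calls were those of Ezh2 between CD150neg MPP and CD150hi HSC in WT, and the gained calls those of Cux1 at the same step in both genotypes. Leaving out the 2 CD150hi HSC libraries turned the CD150lo to CD150hi HSC difference of Luc7l2 to -0.0051 in WT and -0.041 in 5A3+/del mice, and the genotype change of the Cux1 step to 0.086. Leaving out each mouse in turn changed signs of small differences, with ranges of -0.011 to 0.11 for Ezh2 in 5A3+/del against WT in CD150lo HSC, -0.28 to 0.0028 for Ezh2 in 5A3+/del against WT in CD150neg MPP, -0.086 to 0.39 for Luc7l2 in CD150lo HSC against CD150hi HSC in WT, -0.060 to 0.096 for Samd9l in CD150neg MPP against CD150hi HSC in WT, -0.056 to 0.17 for Samd9l in CD150lo HSC against CD150hi HSC in 5A3+/del, -0.036 to 0.31 for Luc7l2 in CD150lo HSC against CD150hi HSC in 5A3+/del, -0.20 to 0.076 for Ezh2 in CD150neg MPP against CD150lo HSC in 5A3+/del, -0.027 to 0.23 for Ezh2 in CD150neg MPP against CD150hi HSC in 5A3+/del, -0.21 to 0.083 for Luc7l2 in CD150neg MPP against CD150hi HSC in 5A3+/del, -0.13 to 0.11 for Cux1 in the genotype change of the CD150neg MPP to CD150hi HSC step and -0.15 to 0.0033 for Samd9l in the genotype change of the CD150neg MPP to CD150hi HSC step.

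Counts of genes called over all genes moved by more than 1.5 times under several alternatives, given here with the count of the main analysis in brackets. With a pseudocount of 0.1 the counts were 15 (24) for 5A3+/del against WT in CD150hi HSC, 8 (5) for 5A3+/del against WT in CD150lo HSC, 0 (6) for CD150neg MPP against CD150lo HSC in 5A3+/del. With no filter on low values the counts were 75 (24) for 5A3+/del against WT in CD150hi HSC, 16 (5) for 5A3+/del against WT in CD150lo HSC, 4 (7) for 5A3+/del against WT in CD150neg MPP, 1 (6) for CD150neg MPP against CD150lo HSC in 5A3+/del. With a trend in the variance prior the counts were 100 (24) for 5A3+/del against WT in CD150hi HSC, 31 (5) for 5A3+/del against WT in CD150lo HSC, 64 (29) for CD150neg MPP against CD150lo HSC in WT. With only the groups compared in the fit the counts were 0 (24) for 5A3+/del against WT in CD150hi HSC, 0 (5) for 5A3+/del against WT in CD150lo HSC, 0 (7) for 5A3+/del against WT in CD150neg MPP, 291 (544) for CD150lo HSC against CD150hi HSC in WT, 2 (29) for CD150neg MPP against CD150lo HSC in WT, 1022 (1548) for CD150neg MPP against CD150hi HSC in WT, 315 (490) for CD150lo HSC against CD150hi HSC in 5A3+/del, 0 (6) for CD150neg MPP against CD150lo HSC in 5A3+/del, 449 (949) for CD150neg MPP against CD150hi HSC in 5A3+/del, 2 (0) for the interaction. Leaving out the 2 CD150hi HSC libraries with the fewest genes, the counts were 9 (24) for 5A3+/del against WT in CD150hi HSC, 12 (5) for 5A3+/del against WT in CD150lo HSC, 48 (29) for CD150neg MPP against CD150lo HSC in WT, 0 (6) for CD150neg MPP against CD150lo HSC in 5A3+/del. With the replicate block (the mouse) the counts were 1 (29) for CD150neg MPP against CD150lo HSC in WT, 2 (6) for CD150neg MPP against CD150lo HSC in 5A3+/del. With median scaling the counts were 14 (29) for CD150neg MPP against CD150lo HSC in WT, 0 (6) for CD150neg MPP against CD150lo HSC in 5A3+/del. Without 1 mouse at a time, the counts ran from 4 to 40 for 5A3+/del against WT in CD150hi HSC, 3 to 74 for 5A3+/del against WT in CD150lo HSC, 3 to 8 for 5A3+/del against WT in CD150neg MPP, 330 to 628 for CD150lo HSC against CD150hi HSC in WT, 0 to 69 for CD150neg MPP against CD150lo HSC in WT, 1030 to 1776 for CD150neg MPP against CD150hi HSC in WT, 334 to 505 for CD150lo HSC against CD150hi HSC in 5A3+/del, 0 to 4 for CD150neg MPP against CD150lo HSC in 5A3+/del, 624 to 971 for CD150neg MPP against CD150hi HSC in 5A3+/del, 0 to 1 for the interaction.

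Same-numbered WT and 5A3+/del mice are different animals, and the r of their deviations ran from -0.03 to 0.08 (14 pairs, median 0.03, 0 over 0.1). Libraries known to share a mouse had a median r of only 0.08, with 10 of 28 pairs over 0.1. The check therefore cannot tell whether the number pairs mice between genotypes. Ages differed for number 2 (13.28 weeks in WT and 13.85 in 5A3+/del) and for number 3 (13.28 and 12.42). With the replicate block, the calls between genotypes were 16 (CD150hi HSC), 8 (CD150lo HSC) and 4 (CD150neg MPP). With the mouse as a block, Ezh2 between CD150neg MPP and CD150hi HSC in WT had an adjusted p of 0.0117, and the block changed no call of the 4 genes. Depth limits Dock4, for which at most 202 fragments were found in a library.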
